A study of Mus musculus with 9 samples.

Results

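The genes described here are 50 genes of the lysosome, the acidic compartment in which a macrophage degrades what it takes up. They comprise 10 cathepsin genes and legumain, 9 genes of lipid handling, 10 genes for glycosidases, phosphatases and a tripeptidyl peptidase, 7 genes for membrane proteins, progranulin and regulators, 6 genes of the membrane sector and accessory part of the proton pump V-ATPase, and 7 genes of its cytosolic sector. They were taken by gene symbol, whatever their values. Of the 50, 48 had at least 1 of 98 probes among the 46237 probes of the array, and Atp6v0c and Atp6v1f had no probe of that symbol. The measurement of 83 of the 98 probes was above background (a detection p-value under 0.05) on at least 3 of 9 arrays, which left 45 of the 50 genes, among 12246 genes tested. Lipa, listed under an older symbol on the platform, was included.

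The arrays were 9 Illumina beadchips of 1 colour, 3 in each of 3 groups, and measured RNA of macrophages from the lungs of female mice of strain C57/BL6, 8 weeks old. Pparg-deficient cells came from mice labelled Pparg-/-.LysMCre, in which LysM, a promoter active in myeloid cells, drives the Cre, and the titles call them "int pop". Homozygous wild type cells carried the same genotype label, Pparg-/-.LysMCre, but their cell type label calls them wild type and their titles "Mph". Heterozygous cells came from mice labelled Pparg-/+.LysMCre and are also called wild type and "Mph", so all 3 groups carry LysMCre and at least 1 Pparg minus allele by their genotype labels. SiglecF and CD11b on the cell surface set the sort gates, and the cells were lysed straight afterwards. Nothing says that the arrays of a group are separate mice, so each p-value covers the spread among these arrays alone, and that spread may be technical. By the chip number in the titles the 3 deficient arrays lie on 1 beadchip and both control groups on another. Between deficient and homozygous wild type cells, which share the genotype label, chip and sorted population therefore cannot be told apart. Against heterozygous cells the labelled genotype differs too and cannot be told apart from them, while homozygous wild type and heterozygous cells were compared within 1 chip.

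Lysosomal hydrolases work at low pH. The V-ATPase pumps protons into the lysosome: its cytosolic V1 sector hydrolyses ATP and its membrane V0 sector carries the protons. Cathepsins are the main lysosomal proteases, lipid hydrolases and the transfer proteins NPC1 and NPC2 clear membrane lipid and cholesterol, and glycosidases trim sugars from glycoproteins and glycolipids. Many of these genes are targets of the transcription factor TFEB and its relatives, which bind a palindromic element around an E-box, called the CLEAR element. Alveolar macrophages degrade inhaled particles and pulmonary surfactant, which is rich in phospholipid, and PPARg, the lipid-activated nuclear receptor encoded by Pparg, is known for its part in their lipid handling.

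The promoters of 5 members show both kinds found among these genes, with and without the E-box letters of the TFEB element. Each runs from 250 bases before to 50 bases after a transcript start, 5′ to 3′ on the gene's strand (RefSeq, GRCm38.p6). Capitals mark CACGTG, the E-box core, or TCACGTGA where the flanking letters are present too.
Ctsd (chr7:142387778-142388077, minus strand): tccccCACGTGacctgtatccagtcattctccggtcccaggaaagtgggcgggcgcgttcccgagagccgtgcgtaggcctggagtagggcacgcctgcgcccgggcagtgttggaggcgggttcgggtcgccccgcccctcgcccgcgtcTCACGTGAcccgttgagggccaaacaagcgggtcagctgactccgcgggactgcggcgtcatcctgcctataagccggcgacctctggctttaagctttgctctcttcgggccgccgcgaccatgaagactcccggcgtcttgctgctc
Mcoln1 (chr8:3500269-3500568, plus strand): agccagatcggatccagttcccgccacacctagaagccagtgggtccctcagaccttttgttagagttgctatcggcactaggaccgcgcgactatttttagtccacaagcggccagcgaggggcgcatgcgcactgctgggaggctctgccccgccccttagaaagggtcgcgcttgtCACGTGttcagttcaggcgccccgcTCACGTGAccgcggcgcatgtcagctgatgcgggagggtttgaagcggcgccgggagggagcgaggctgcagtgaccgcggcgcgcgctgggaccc
Atp6v1a (chr16:44139210-44139509, minus strand): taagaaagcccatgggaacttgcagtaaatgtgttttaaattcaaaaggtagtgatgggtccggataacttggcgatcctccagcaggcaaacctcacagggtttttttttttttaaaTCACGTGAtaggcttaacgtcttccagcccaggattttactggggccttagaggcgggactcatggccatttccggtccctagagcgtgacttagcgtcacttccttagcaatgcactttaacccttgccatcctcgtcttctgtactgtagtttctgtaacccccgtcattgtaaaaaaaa
Cd63 (chr10:128909095-128909394, plus strand): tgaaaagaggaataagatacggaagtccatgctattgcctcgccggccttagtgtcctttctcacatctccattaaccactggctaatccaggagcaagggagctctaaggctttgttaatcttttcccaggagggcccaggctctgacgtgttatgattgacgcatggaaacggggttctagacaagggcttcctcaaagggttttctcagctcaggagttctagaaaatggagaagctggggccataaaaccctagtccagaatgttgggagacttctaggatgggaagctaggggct
Ctsk (chr3:95498960-95499259, plus strand): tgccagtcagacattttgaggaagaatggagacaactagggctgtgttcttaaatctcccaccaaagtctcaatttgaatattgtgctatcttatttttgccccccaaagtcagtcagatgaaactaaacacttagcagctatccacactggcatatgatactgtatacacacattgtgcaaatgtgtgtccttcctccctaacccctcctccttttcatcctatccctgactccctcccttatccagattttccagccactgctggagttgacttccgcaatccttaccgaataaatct
The Ctsd window (cathepsin D) holds the core at -245 and -98 and that of Mcoln1 (a lysosomal calcium channel) at -71 and -45, where the position is that of the first letter of the core and the start itself is 0. Atp6v1a, the catalytic subunit of the pump, holds it at -131. Cd63 and Ctsk, the pair of members with the smallest p in the comparison with both controls below, hold none in these windows.

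Of the 50 members, 41 matched a RefSeq promoter window by symbol. CACGTG, a palindrome and so the same on both strands, was present in at least 1 window of 12 of the 41 (29.3%), against 8.09% of all 27025 genes with a window. These 12 were Ctsa, Ctsd, Ctsl, Lgmn, Gla, Glb1, Gaa, Lamp1, Mcoln1, Atp6v0b, Atp6v0d1 and Atp6v1a. The 8 letters TCACGTGA, which contain CACGTG, were found in 6 of the 41 (14.6%), against 1.12% of all genes: Ctsa, Ctsd, Gla, Mcoln1, Atp6v0d1 and Atp6v1a. None of the 7 lipid handling genes with a window held CACGTG. A match of letters is a description and shows no binding.

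The arrays' median raw signal was 146 to 184 in deficient, 145 to 242 in homozygous wild type and 198 to 290 in heterozygous cells, and 37.8% to 42.5% of probes per array were above background. The number of arrays limits the precision. Pparg itself had log2 signals of 7.58, 7.23 and 7.76 in deficient cells, 9.71, 9.15 and 8.13 in homozygous wild type cells and 9.46, 9.36 and 9.55 in heterozygous cells. Deficient cells lay below all 6 control arrays. Their log2 difference from the average of the control group means was -1.70 (SE 0.34, limma adjusted p = 0.0592). That average is meant wherever a difference from both controls is given. The exact two-sided permutation p was 0.0119, the smallest that 84 choices of arrays can give. Without homozygous wild type replicate 3 the limma adjusted p was 0.0126, over a range of 0.0121 to 0.257 across the processing alternatives.

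Marker sums of some cell types differed between the groups. Those of eosinophils, dendritic cells, T, B and NK cells, endothelial and stromal cells, and red cells and platelets overlapped among all 3 groups. The eosinophil list, the T, B and NK cell list and the red cell and platelet list had only 1 gene tested each. Of 4 endothelial and stromal genes tested, 1 was called higher in deficient than in heterozygous cells (2.35, limma adjusted p = 0.019). The other 3 were below 0 there, and 0 of the 4 were called against both controls or homozygous wild type cells. On a linear scale, 9 genes of alveolar macrophages, among them Pparg and the gated Siglecf, summed to 7063 to 7417 in deficient, 9045 to 10109 in homozygous wild type and 9324 to 10232 in heterozygous cells. The sum over 8 genes of monocytes and interstitial macrophages was 5679 to 7227 in deficient, 3073 to 5157 in homozygous wild type and 2272 to 2340 in heterozygous cells. Of those lists, 4 alveolar genes were called lower in deficient cells than in the average of both controls. In that comparison the 9 alveolar genes had a median log2 difference of -1.70, and 8 of them were below 0, down to -4.56. The 1 alveolar gene above 0 differed by 0.54 (unadjusted limma p under 0.05). Among the 8 monocyte and interstitial genes 2 were called higher and 1 lower there. Against homozygous wild type cells alone, 1 alveolar gene was called lower and 0 monocyte and interstitial genes were called. Between the controls, 1 monocyte and interstitial gene was called higher in homozygous wild type than in heterozygous cells. The neutrophil list had 8 genes with a probe, of which 3 passed the filter and were tested. It summed to 331 to 379 in deficient, 257 to 457 in homozygous wild type and 123 to 149 in heterozygous cells. Of the 3, the collagenase gene Mmp8 was called higher in deficient cells than in the average of both controls (1.90, adjusted p = 0.0202). Another was lower there (-0.70, unadjusted limma p under 0.05). Against homozygous wild type cells alone 0 of the 3 were called, with differences from -0.62 to 0.88. Between the controls 1 of the 3 was called higher in homozygous wild type than in heterozygous cells (3.19). The sum over 7 epithelial genes was 2080 to 2509 in deficient, 1685 to 2029 in homozygous wild type and 1781 to 2054 in heterozygous cells, higher on every deficient array. Of the 7, Hopx was called higher than the average of both controls (2.15, adjusted p = 0.0087). In the same comparison 3 of the 7 were below 0, down to -2.03. Against homozygous wild type cells alone 0 of the 7 were called. Epcam, also of that list, was below background on all 3 deficient arrays. Ccr2 (inflammatory monocytes), Retnlg, Cxcr2, Ngp and Ltf (neutrophils) and Prg2, Prg3, Epx and Ccr3 (eosinophils) were below background on every array. The part that other cells play in the values below was not tested, and in sorted bulk samples fewer cells of a type and less RNA per cell cannot be told apart.

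Against both control groups, 0 of the 45 lysosomal members passed a Benjamini-Hochberg adjusted p of 0.05 over all 12246 genes in limma, where 0.768% of all genes did, and 0 to 2 did under the processing alternatives. At an unadjusted p under 0.05, 4 of the 45 differed (8.89%, against 12.8% of all genes), and all 4 were higher in deficient cells: Cd63, Ctsk, Man2b1 and Ctss. The median log2 difference was 0.14 over the members and -0.07 over all genes tested, and 29 of the 45 members (64.4%) were above 0, against 43.4% of all genes. In 8 members every deficient array lay above all 6 control arrays, against 3.58% of all genes, and in 0 every deficient array lay below them, against 3.3%. These 8, on the probe used for each gene, were Ctsb, Ctsh, Ctsk, Ctss, Npc2, Man2b1, Lamp2 and Grn. The SE of a member's difference had a median of 0.21, and for 35 of the 45 members the unadjusted 95% interval lay wholly within a 2-fold change either way.

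**Figure D1:**
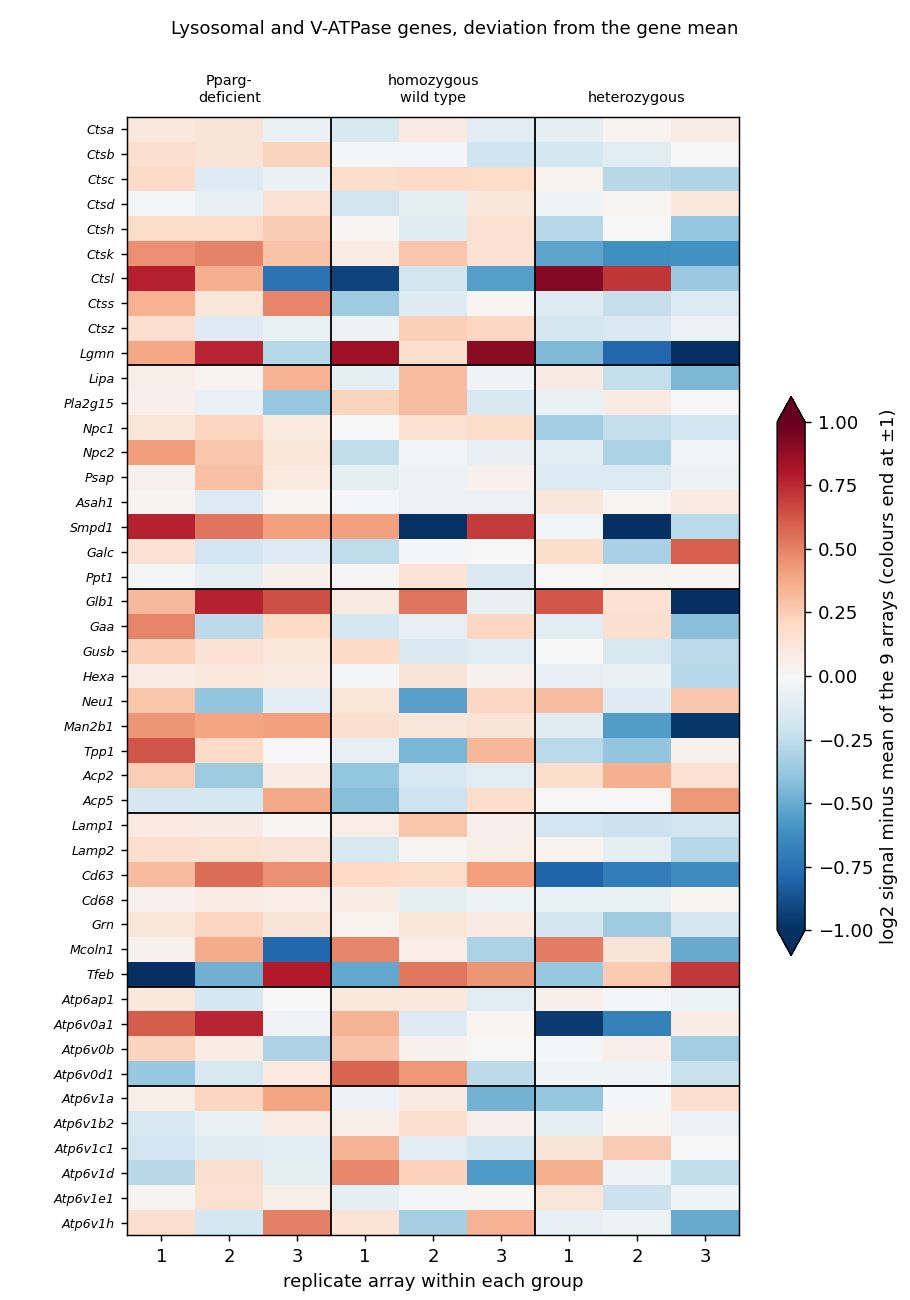
Log2 signal of the 45 tested members on each of the 9 arrays, as the deviation from the gene's mean over all arrays, with replicate arrays along the horizontal axis and genes down the page by role, divided by lines. Red is above and blue below the gene's mean, with colours ending at a deviation of 1. Ctsk, Man2b1 and Cd63 are blue on all 3 heterozygous arrays.

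Among the cathepsins and legumain, 10 of 11 genes were tested, 0 were called, and 8 were above 0 against both controls, with a median difference of 0.23. Ctsk, cathepsin K, a collagen-cleaving protease best known from osteoclasts, had log2 signals of 10.23, 10.27 and 10.06 in deficient cells, 9.85, 10.05 and 9.92 in homozygous wild type cells and 9.25, 9.16 and 9.16 in heterozygous cells. The 3 groups did not overlap, with deficient cells highest and heterozygous cells lowest. Its difference from both controls was 0.62 (SE 0.20, adjusted p = 0.218). Ctss, cathepsin S, which trims the invariant chain of MHC class II, had 10.10, 9.86 and 10.24 in deficient cells, 9.39, 9.62 and 9.77 in homozygous wild type and 9.62, 9.52 and 9.61 in heterozygous cells. Deficient arrays lay above all control arrays, and the control groups overlapped. The difference was 0.48 (SE 0.21, adjusted p = 0.384).

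Ctsh, an aminopeptidase also known for processing surfactant protein, and Ctsb, a broad endopeptidase, differed less. Ctsh had 10.56, 10.56 and 10.63 in deficient, 10.39, 10.26 and 10.53 in homozygous wild type and 10.09, 10.38 and 9.99 in heterozygous cells. Ctsb had 11.26, 11.22 and 11.32 in deficient, 11.09, 11.09 and 10.90 in homozygous wild type and 10.92, 10.99 and 11.10 in heterozygous cells. In both genes the deficient arrays lay above the controls, by 0.31 (SE 0.21, adjusted p = 0.575) for Ctsh and by 0.25 (SE 0.19, adjusted p = 0.632) for Ctsb. A second probe of Ctsh gave 0.08, and -0.09 against homozygous wild type cells alone. A second probe of Ctsb gave 0.73 against both controls. On both of these second probes the deficient and control arrays overlapped. Ctsz, cathepsin Z, a carboxypeptidase, had a difference below 0, with 9.20, 8.91 and 8.97 in deficient, 8.98, 9.27 and 9.24 in homozygous wild type and 8.87, 8.89 and 8.97 in heterozygous cells. Its difference of -0.01 was well within its SE of 0.20, as was that of Ctsc, cathepsin C, the other gene of the group below 0 (-0.0037, SE 0.21). Ctsd, the aspartic protease cathepsin D with 2 copies of CACGTG in the promoter above, differed by 0.03 (SE 0.20) and the groups overlapped.

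Legumain (Lgmn), an asparaginyl endopeptidase that activates cathepsins, separated the control groups rather than the deficient cells. Its log2 signals were 7.23, 7.61 and 6.56 in deficient cells, 7.70, 7.01 and 7.75 in homozygous wild type cells and 6.40, 6.06 and 5.31 in heterozygous cells. Deficient and homozygous wild type arrays overlapped and both lay above the heterozygous arrays. Ctsl, cathepsin L, was near background, with 6.04, 5.62 and 4.52 in deficient, 4.34, 5.08 and 4.71 in homozygous wild type and 6.18, 5.98 and 4.89 in heterozygous cells. It was above background on 2 of 3 deficient, 0 of 3 homozygous wild type and 2 of 3 heterozygous arrays, so no fold change is given for it. The 2 probes of Ctse, an aspartic protease, were above background on 0 arrays.

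**Figure D2:**
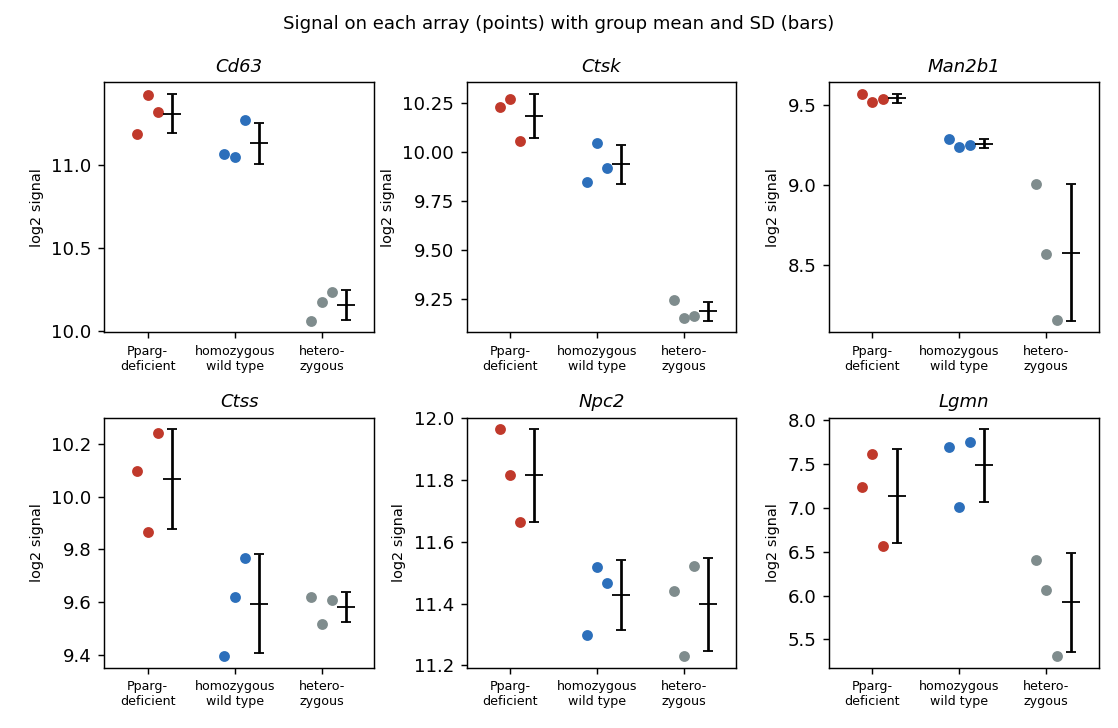
Log2 signal of Cd63, Ctsk, Man2b1, Ctss, Npc2 and Lgmn on each array (points) with the group mean and SD (bars, n = 3), for Pparg-deficient, homozygous wild type and heterozygous cells. Each panel has its own vertical scale, which does not start at 0. Heterozygous arrays lie apart and low for Cd63, Ctsk, Man2b1 and Lgmn, while Ctss and Npc2 are highest in the deficient arrays.

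The 9 lipid handling genes were all tested, 0 were called, and 5 were above 0, with a median of 0.22 and none called in any other comparison. Npc2, the soluble carrier that passes cholesterol to NPC1, had 11.96, 11.81 and 11.66 in deficient cells, 11.30, 11.52 and 11.47 in homozygous wild type cells and 11.44, 11.23 and 11.52 in heterozygous cells. It was above the controls on every deficient array, by 0.40 (SE 0.20, adjusted p = 0.447), and the control groups overlapped. Npc1, the membrane transporter of the same route, had 10.16, 10.25 and 10.13 in deficient, 10.04, 10.19 and 10.22 in homozygous wild type and 9.70, 9.79 and 9.85 in heterozygous cells. Here deficient and homozygous wild type cells overlapped above the heterozygous arrays, and the difference from both controls was 0.22 (SE 0.19). Smpd1, acid sphingomyelinase, had 8.09, 7.86 and 7.73 in deficient, 7.73, 6.34 and 8.02 in homozygous wild type and 7.29, 5.80 and 7.05 in heterozygous cells. Replicate 2 of each control group was low, and the difference of 0.85 had an SE of 0.44 (adjusted p = 0.453).

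Psap encodes prosaposin, the precursor of the saposins that present sphingolipids to their hydrolases. It had 13.31, 13.57 and 13.37 in deficient cells, 13.18, 13.22 and 13.31 in homozygous wild type cells and 13.14, 13.14 and 13.22 in heterozygous cells, a difference of 0.22 (SE 0.20) with overlapping groups. Lipa, lysosomal acid lipase, which hydrolyses cholesteryl esters and triglycerides, had 8.11, 8.08 and 8.40 in deficient, 7.96, 8.36 and 8.01 in homozygous wild type and 8.14, 7.82 and 7.61 in heterozygous cells, and also overlapped (0.22, SE 0.23). Pla2g15, the lysosomal phospholipase A2 for which alveolar macrophages are known, was of the opposite sign. Its signals were 10.70, 10.59 and 10.27 in deficient, 10.87, 10.96 and 10.50 in homozygous wild type and 10.58, 10.74 and 10.65 in heterozygous cells, a difference of -0.20 (SE 0.22, 95% interval -0.69 to 0.29). Asah1 (acid ceramidase), Galc (galactosylceramidase) and Ppt1 (palmitoyl-protein thioesterase) differed by -0.04, -0.09 and -0.03, each within its SE.

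Of the 10 genes for glycosidases, phosphatases and tripeptidyl peptidase, 9 were tested, 0 were called and 7 were above 0, with a median of 0.21. The single probe of Gla, alpha-galactosidase, was above background on 0 arrays. Man2b1, lysosomal alpha-mannosidase, had 9.57, 9.52 and 9.53 in deficient cells, 9.29, 9.23 and 9.25 in homozygous wild type cells and 9.01, 8.57 and 8.15 in heterozygous cells. The groups did not overlap, and the spread was widest among the heterozygous arrays. The difference from both controls was 0.62 (SE 0.23, adjusted p = 0.318), and a second passing probe gave 0.66. Tpp1, the tripeptidyl peptidase, had 7.87, 7.44 and 7.25 in deficient, 7.16, 6.79 and 7.57 in homozygous wild type and 6.97, 6.84 and 7.28 in heterozygous cells, which overlapped (0.42, SE 0.26). Gusb, beta-glucuronidase, had 10.71, 10.62 and 10.58 in deficient, 10.66, 10.32 and 10.36 in homozygous wild type and 10.47, 10.31 and 10.21 in heterozygous cells, also with overlap (0.25, SE 0.20).

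Glb1, beta-galactosidase, had the widest error of the members. Its signals were 7.77, 8.21 and 8.09 in deficient, 7.53, 7.97 and 7.37 in homozygous wild type and 8.06, 7.60 and 4.38 in heterozygous cells, and heterozygous replicate 3 was below background. The difference of 0.87 had an SE of 0.69, and the 3 other probes of Glb1 did not show that low array. With 1 of those probes, which was above background on all 9 arrays, the difference was -0.06. Neu1, the sialidase, was of the opposite sign, with 9.41, 8.74 and 9.02 in deficient, 9.25, 8.59 and 9.34 in homozygous wild type and 9.44, 9.00 and 9.40 in heterozygous cells. Replicate 2 was the lowest in each group, and the difference of -0.12 was within its SE of 0.27. Acp5, the tartrate-resistant acid phosphatase that marks osteoclasts beside Ctsk, differed by 0.02 (SE 0.25), and Acp2, lysosomal acid phosphatase, by -0.02 (SE 0.22).

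The 7 genes for membrane proteins, progranulin and regulators were all tested, with 0 called, 5 above 0 and a median of 0.10. Cd63, a tetraspanin of late endosomes, lysosomes and exosomes, had 11.18, 11.42 and 11.32 in deficient cells, 11.06, 11.05 and 11.27 in homozygous wild type cells and 10.06, 10.17 and 10.23 in heterozygous cells. Both homozygous groups lay near each other, with deficient replicate 1 below homozygous wild type replicate 3, and the heterozygous arrays were lower than both. The difference from both controls was 0.67 (SE 0.20, adjusted p = 0.191), the smallest adjusted p of any member there. The other probes of Cd63 gave 0.52 and 0.36. Without homozygous wild type replicate 3 the brightest probe became another one and the difference was 0.34 (adjusted p = 0.581), over a range of adjusted p from 0.0104 to 0.581 across the alternatives.

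Progranulin and the lysosomal membrane glycoproteins named next differed from both controls by 0.09 to 0.23. Grn, progranulin, a secreted and lysosomal glycoprotein, had 10.66, 10.75 and 10.66 in deficient, 10.57, 10.65 and 10.61 in homozygous wild type and 10.35, 10.18 and 10.37 in heterozygous cells, so that the groups did not overlap (0.23, SE 0.19). Lamp2, a main glycoprotein of the lysosomal membrane, averaged 11.12 ± 0.019 in deficient, 10.94 ± 0.12 in homozygous wild type and 10.85 ± 0.16 in heterozygous cells (SD, n = 3 each), a difference from both controls of 0.22 (SE 0.20). Deficient arrays were above the controls on that probe, but 1 of its 7 probes had the opposite sign. Lamp1, the other such glycoprotein, had 11.47, 11.46 and 11.40 in deficient, 11.44, 11.65 and 11.43 in homozygous wild type and 11.19, 11.16 and 11.19 in heterozygous cells, with the heterozygous arrays lowest (0.10, SE 0.19). Cd68, a heavily glycosylated macrophage relative of the LAMP proteins, had 10.29, 10.32 and 10.31 in deficient, 10.32, 10.16 and 10.19 in homozygous wild type and 10.18, 10.18 and 10.26 in heterozygous cells. All 9 arrays lay close together and the difference was 0.09 (SE 0.19, 95% interval -0.34 to 0.52).

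Tfeb, the transcription factor of the CLEAR element, was dim and variable. It had 4.92, 5.80 and 7.08 in deficient cells, where replicate 1 was below background, 5.77, 6.81 and 6.72 in homozygous wild type cells and 5.91, 6.55 and 6.99 in heterozygous cells. The groups overlapped, with deficient cells holding both the lowest and the highest of the 9 values, and the difference of -0.53 had an SE of 0.48 (95% interval -1.60 to 0.54). Mcoln1, whose promoter above holds 2 copies of CACGTG, differed by -0.19 (SE 0.34). Among tested members with a window, the 11 with CACGTG had a median difference from both controls of 0.10 and the 27 without it 0.14.

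In the V0 sector and accessory genes of the proton pump, 4 of 6 were tested, 0 were called and 1 was above 0, with a median of -0.02. Atp6v0a1, an isoform of the large membrane subunit, had 9.09, 9.24 and 8.44 in deficient, 8.82, 8.35 and 8.50 in homozygous wild type and 7.53, 7.80 and 8.55 in heterozygous cells. Deficient replicate 3 lay below some arrays of both control groups, and the difference was 0.67 (SE 0.30, adjusted p = 0.4). Its second probe gave 0.24. Atp6v0d1, the widely expressed d subunit, had 9.06, 9.28 and 9.54 in deficient, 10.03, 9.88 and 9.19 in homozygous wild type and 9.40, 9.40 and 9.23 in heterozygous cells, with overlap (-0.22, SE 0.25). Its 3 other probes had the opposite sign, from 0.06 to 0.54. Atp6v0d2, the d subunit known from osteoclasts and macrophages, had a probe above background on 1 of 9 arrays, deficient replicate 1, and was not tested.

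Atp6ap1, an accessory subunit of the pump, had 12.49, 12.21 and 12.38 in deficient, 12.49, 12.49 and 12.28 in homozygous wild type and 12.44, 12.37 and 12.33 in heterozygous cells, and differed by -0.04 (SE 0.20). Atp6v0b, of the proton-carrying ring, had 8.48, 8.33 and 7.95 in deficient, 8.54, 8.31 and 8.26 in homozygous wild type and 8.24, 8.31 and 7.91 in heterozygous cells, a difference of -0.01 (SE 0.23). In both genes the groups overlapped, with deficient replicate 2 of Atp6ap1 below every control array.

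In the V1 sector, 6 of 7 genes were tested, 0 were called and 3 were above 0, with a median of 0.02. Atp6v1a, the catalytic A subunit, had 9.00, 9.15 and 9.33 in deficient, 8.88, 9.03 and 8.47 in homozygous wild type and 8.55, 8.93 and 9.11 in heterozygous cells. It overlapped in part (0.33, SE 0.24, adjusted p = 0.606). Atp6v1c1, of the stalk that links both sectors, had 9.17, 9.24 and 9.25 in deficient, 9.70, 9.25 and 9.16 in homozygous wild type and 9.48, 9.62 and 9.36 in heterozygous cells (-0.21, SE 0.21). It was the 1 member with every deficient array below every heterozygous array, and its second probe had the opposite sign. Atp6v1h, a regulatory subunit, had 7.54, 7.20 and 7.88 in deficient, 7.51, 7.04 and 7.72 in homozygous wild type and 7.29, 7.33 and 6.87 in heterozygous cells (0.24, SE 0.26). Atp6v1e1, of the peripheral stalk, had 10.52, 10.65 and 10.55 in deficient, 10.40, 10.47 and 10.51 in homozygous wild type and 10.62, 10.28 and 10.45 in heterozygous cells (0.12, SE 0.20). The remaining V1 genes, Atp6v1b2 and Atp6v1d, differed by -0.07 and -0.11, within their SE. The 95% intervals of all 6 tested V1 genes lay within a 2-fold change either way.

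Against homozygous wild type cells alone, which carry the same genotype label, 0 of the 45 members were called in limma (0.196% of all genes were) or under any alternative run, and 0 had an unadjusted p under 0.05, against 8.28% of all genes. The median difference was 0.09 over the members and -0.04 over all genes. In 9 members every deficient array lay above every homozygous wild type array (6.17% of all genes) and in 0 below (6.7% of all genes). Among the probes used for the genes, the smallest p belonged to Ctss, with a difference of 0.47 (SE 0.24, adjusted p = 0.647). Npc2 followed, with 0.39 (SE 0.24, adjusted p = 0.726). Ctsl, next in order, was not above background on any homozygous wild type array. Cd63, Ctsk and Man2b1 differed by 0.18, 0.25 and 0.28 here. For 35 of the 45 members the 95% interval lay within a 2-fold change either way.

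Against heterozygous cells, 0 of the 45 members were called in limma, where 1.05% of all genes were, and 0 to 3 under the alternatives. Of the 45, 6 had an unadjusted p under 0.05 (13.3%, against 13.8% of all genes). All 6 were higher in deficient cells: Cd63, Ctsk, Man2b1, Lgmn, Atp6v0a1 and Smpd1. Cd63 differed by 1.15 (SE 0.23), 2.22-fold, with an adjusted p of 0.0537. Ctsk differed by 1.00 (SE 0.23, adjusted p = 0.0788) and Man2b1 by 0.96 (SE 0.27, adjusted p = 0.145). Lgmn differed by 1.21 (SE 0.39, adjusted p = 0.216). The median difference was 0.24 over the members and -0.12 over all genes. In 17 members the deficient arrays all lay above the heterozygous arrays, against 10% of all genes, and in 1 below, against 12.5%.

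Whether Cd63, Ctsk and Man2b1 passed the test against heterozygous cells depended on the background correction, and for Cd63 and Ctsk also on the filter on dim probes. With no background correction, a saddle-point normexp or the authors' normalized table, all 3 genes were called. Across the alternatives the adjusted p ran from 0.000747 to 0.396 for Cd63, from 0.00234 to 0.235 for Ctsk and from 0.0198 to 0.38 for Man2b1. The log2 differences over the same alternatives were 0.50 to 1.31 for Cd63, 0.81 to 1.14 for Ctsk and 0.71 to 1.18 for Man2b1, above 0 in each.

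**Figure D3:**
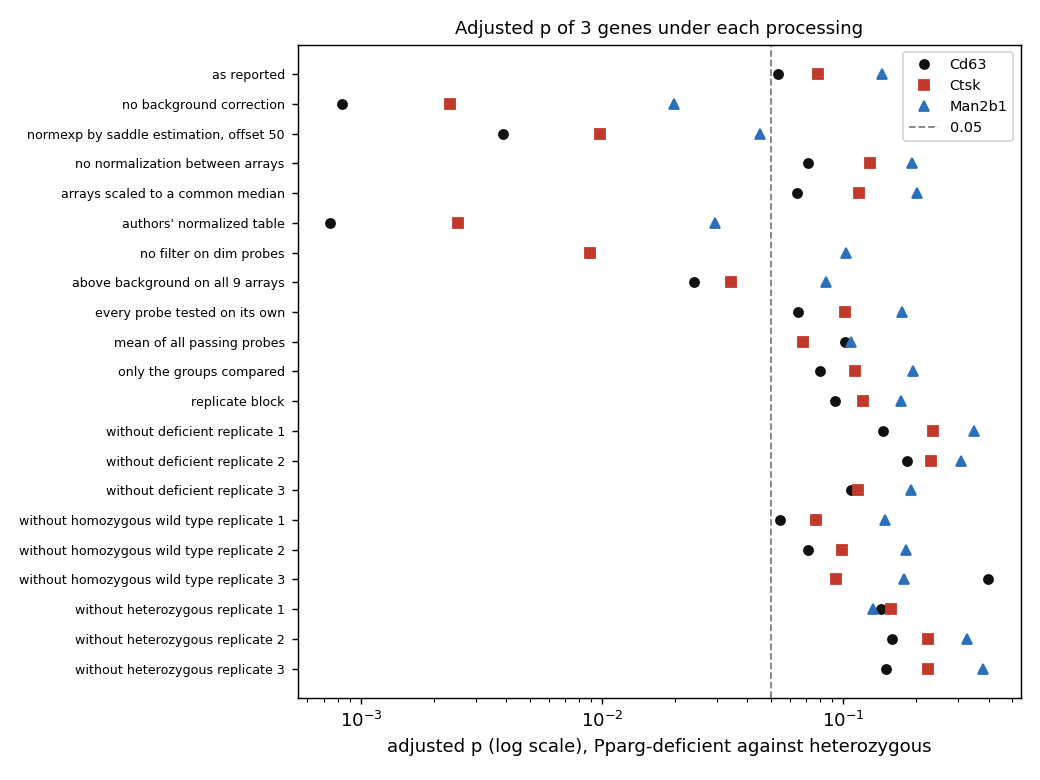
Benjamini-Hochberg adjusted p (horizontal log axis) of Cd63, Ctsk and Man2b1 for Pparg-deficient against heterozygous cells, as reported and under each alternative processing (rows), with a dashed line at 0.05. All 3 genes lie left of the line with no background correction, with the saddle-point normexp and in the authors' normalized table, and right of it with every single array left out. With no filter on dim probes the points of Cd63 and Ctsk coincide.

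Between the control groups, homozygous wild type against heterozygous cells, 0 of the 45 members were called in limma, where 0.0327% of all genes were, and 0 or 1 under the alternatives. Of the 45, 4 had an unadjusted p under 0.05 (6.37% of all genes). All 4 were higher in homozygous wild type cells. They were Cd63 (0.97, SE 0.23, adjusted p = 0.357), Lgmn (1.56, SE 0.39, adjusted p = 0.408), Ctsk (0.75, SE 0.23, adjusted p = 0.599) and Man2b1 (0.68, SE 0.27, adjusted p = 0.746). These 4 are also among the members with a low p against heterozygous cells above, and both comparisons share the heterozygous arrays. The median difference was 0.11 over the members and -0.07 over all genes. In 11 members the homozygous wild type arrays all lay above the heterozygous arrays (5.48% of all genes) and in 2, Asah1 and Acp2, below (6.59% of all genes).

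The level in heterozygous cells was the lowest of the 3 group means in 27 of the 45 members (60%), against 28.6% of all genes tested, and in 24 to 37 members across the processing alternatives. The median deviation of the members from their own mean was 0.14, 0.12 and 0.10 on the 3 deficient arrays, 0.01, 0.05 and 0.02 on the homozygous wild type arrays and -0.07, -0.07 and -0.14 on the heterozygous arrays. The median over the cathepsins and legumain was lowest on the heterozygous arrays, at -0.15, -0.13 and -0.22. It was -0.03, 0.03 and 0.13 on the homozygous wild type arrays and 0.18, 0.13 and 0.04 on the deficient arrays. The median over the 6 tested V1 genes stayed between -0.09 and 0.10 on every array. Single V1 genes varied more, such as Atp6v1d with 9.74, 9.49 and 8.69 on the homozygous wild type arrays.

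**Figure D4:**
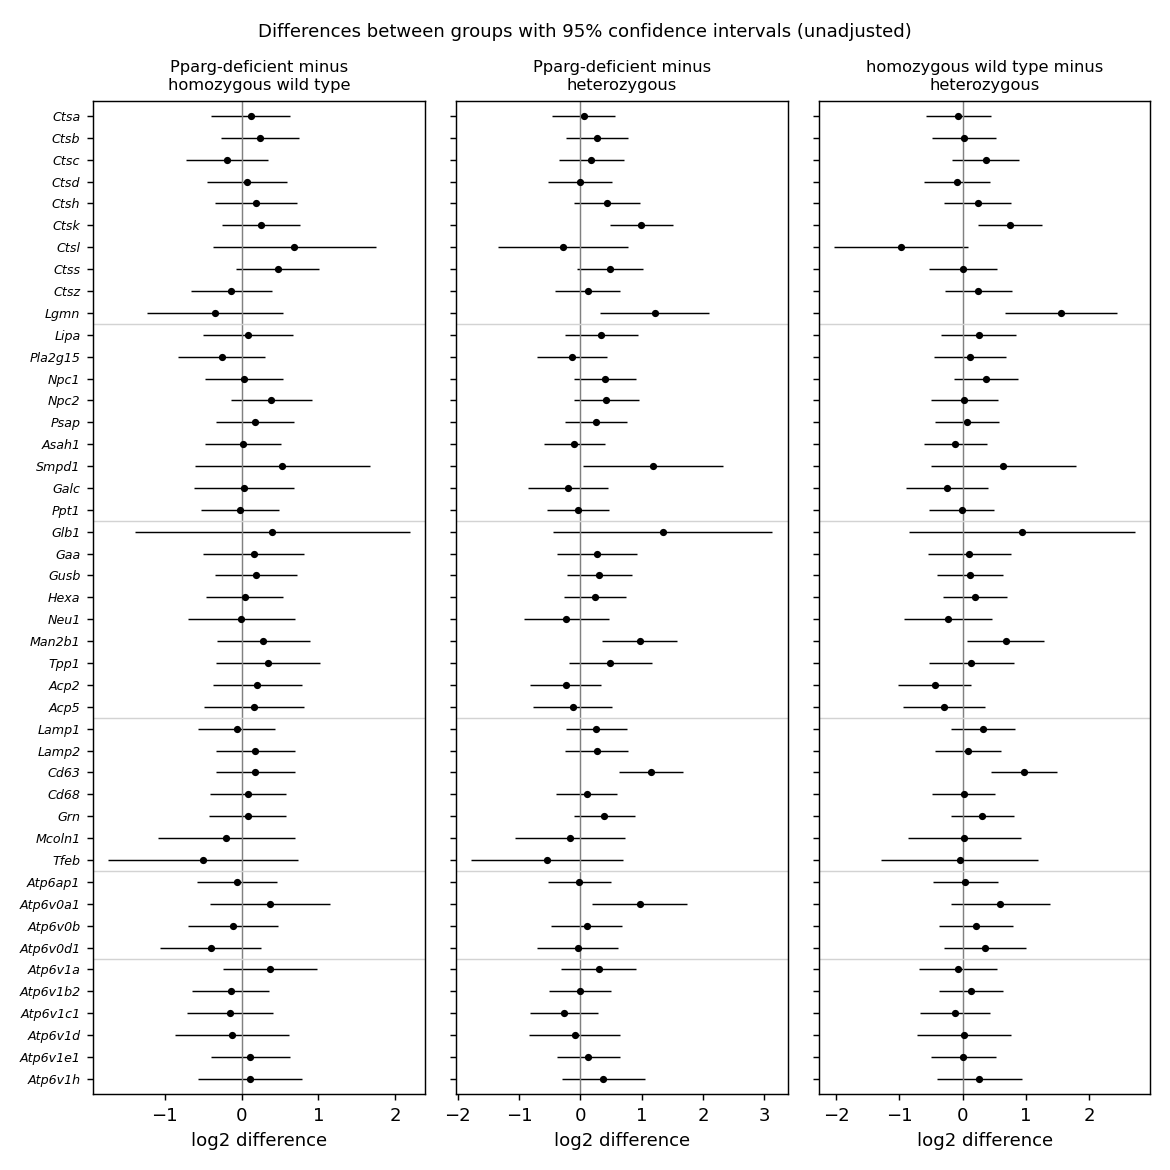
Log2 difference of each of the 45 tested members with its unadjusted 95% confidence interval, for Pparg-deficient minus homozygous wild type, Pparg-deficient minus heterozygous and homozygous wild type minus heterozygous cells, with genes by role divided by lines. Intervals of Cd63, Ctsk, Man2b1 and Lgmn lie right of 0 in both comparisons with heterozygous cells, and every interval of the comparison with homozygous wild type cells spans 0.

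Other genes of the pathway came from lists of 85 genes for further lysosomal enzymes, membrane and sorting proteins, V-ATPase subunits, the TFEB family with its control, and inhibitors of cysteine proteases. Of these, 60 were tested and 0 were called against both controls in limma, with an unadjusted p under 0.05 for 7 that were higher and 5 that were lower (20%, against 12.8% of all genes) and a median difference of -0.03. Slc11a1, the phagosomal metal transporter NRAMP1, had 5.79, 5.27 and 5.13 in deficient cells, 4.21, 4.32 and 4.58 in homozygous wild type and 4.23, 4.27 and 4.37 in heterozygous cells. It was above background on all 3 deficient arrays and on no control array. Taking the lowest signal among probes above background as a bound for the controls, deficient cells were at least 1.42-fold higher with the processing as reported. The limma difference of 1.07 (adjusted p = 0.0785) rests on control values below background. Slc11a1 passed the filter only through the deficient arrays, where it is high, so that p is no independent evidence of a difference. Idua, the iduronidase of glycosaminoglycan breakdown, had 7.23, 7.50 and 6.15 in deficient, 5.91, 5.59 and 5.61 in homozygous wild type and 5.56, 4.52 and 4.86 in heterozygous cells, a difference of 1.62 (SE 0.35, adjusted p = 0.08). Ggh, gamma-glutamyl hydrolase, had 6.22, 6.28 and 5.88 in deficient, 5.40, 5.03 and 4.58 in homozygous wild type and 5.56, 5.02 and 5.58 in heterozygous cells (0.93, SE 0.26, adjusted p = 0.166). In these 3 genes every deficient array lay above every control array. Idua lay under the lowest signal among probes above background on heterozygous replicates 2 and 3 (4.88 and 4.98). Ggh did so on homozygous wild type replicate 3 (4.92). The differences of Idua and Ggh therefore rest in part on control values below background. Cd164, a sialomucin of endosomes and lysosomes, ran the other way, with 10.74, 10.66 and 10.46 in deficient cells, 11.85, 11.38 and 11.10 in homozygous wild type and 11.86, 11.73 and 11.85 in heterozygous cells (-1.01, SE 0.23, adjusted p = 0.0985). Under the alternatives Cd164 was called lower in 3, with no background correction, the saddle-point normexp and the authors' normalized table (lowest adjusted p = 0.00413). Idua was called higher in 1, without deficient replicate 3 (2.03, adjusted p = 0.0434). Over the alternatives the log2 difference ran from 0.49 to 2.03 for Idua, 0.18 to 1.06 for Ggh, 0.40 to 1.14 for Slc11a1 and -1.10 to -0.91 for Cd164. Cd164 was tested in 20 alternatives, Idua and Ggh in 19 and Slc11a1 in only 16.

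Where a member had several probes above background, the probe with the highest mean was used. Of the 20 such members, all probes had the same sign against both controls in 10, among them Cd63, Man2b1, Ctsb, Ctsh, Psap, Lipa, Smpd1, Gusb and Atp6v0a1. They did not in Ctsa, Ctsc, Ctsz, Npc1, Asah1, Glb1, Acp2, Lamp2, Atp6v0d1 and Atp6v1c1, whose direction therefore depends on the probe.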

How the data were processed

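Arrays were grouped by the cell type, genotype and title labels. The authors deposited an intensity per probe, not normalized per the file headers, with a detection p-value per probe, and a normalized intensity table, used only as an alternative. The sources used here do not give their method. The deposited intensities were background-corrected with normexp in limma 3.58.1 (R 4.3.3), with control statistics inferred from the deposited detection p-values and an offset of 16, quantile normalized and turned into log2 values. Probes with a detection p-value under 0.05 on at least 3 of 9 arrays were kept, 21946 of 46237. On the platform 10453 probes had no symbol, 0 had several and 35784 had 1, which was updated by identifier or accession from a RefSeq table of GRCm38.p6 (28620 and 2637 probes) or kept as listed (4527). The passing probe with the highest mean represented each gene.

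A model with 1 mean per group was fitted to 12246 genes with lmFit and eBayes, with Benjamini-Hochberg adjustment over all of them in each of 4 comparisons. The fit was tried on simulated arrays with independent errors and no chip effect, so that trial cannot speak to the chip or to technical replicates here. Genes named in full were Pparg, up to 4 members of each role with the smallest p plus 1 of opposite sign, the 3 with the smallest p in each other comparison, a few fixed ones, and 4 other pathway genes. Other members named were chosen after their values were seen. The members and lists were chosen with earlier results of these data known. Alternatives changed the background correction, normalization, filter, probe rule, samples and replicate block, and left out each array in turn.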

Additional observations from a re-analysis of the deposited data

How the results depend on the processing

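Across the alternatives 0 members were called against homozygous wild type cells. The members called were 2 against both controls (Cd63, Ctsk), 3 against heterozygous cells (with Man2b1) and 1 between the controls (Cd63) with no background correction and in the authors' normalized table. They were 1 (Cd63), 3 and 0 with the saddle-point normexp, 2, 2 and 0 with no filter on dim probes, and 0, 2 and 0 with only probes above background on all 9 arrays. In every other setting, arrays left out included, they were 0. Calls over all genes were 94, 24, 129 and 4 against both controls, against homozygous wild type, against heterozygous and between the controls, up to 276, 67, 348 and 15 with no background correction, and 273, 63, 323 and 21 in the authors' table. With single arrays left out they were 22 to 99, 7 to 28, 44 to 156 and 0 to 6. With no normalization between arrays the median of all genes against both controls was -0.29 in place of -0.07, that of the members 0.36 above it in place of 0.21, and the split of calls was 52 higher and 40 lower in place of 70 and 24. That split was 62 and 43 with no filter on dim probes, and 12 and 19 with only probes above background on all 9 arrays.

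The members' median difference against both controls was 0.11 with no background correction, 0.0671 with no normalization, 0.0898 in the authors' table, 0.17 with no filter and 0.11 to 0.16 with single arrays left out. Against homozygous wild type it was -0.0254 with no normalization, 0.0329 with arrays scaled to a common median, 0.0427 in the authors' table and 0.0761 to 0.133 with single arrays left out. Against heterozygous cells it was 0.18 with no background correction, 0.19 with no normalization, 0.32 with scaled arrays, 0.18 in the authors' table and 0.15 to 0.24 with single arrays left out. Between the controls it was 0.0723, 0.21, 0.28 and 0.14 in the same 4 settings. The Pparg difference from both controls was called at -1.11 with no background correction, -1.32 with the saddle-point normexp, -1.08 in the authors' table and -1.92 without homozygous wild type replicate 3, with a range of -1.92 to -1.50 over single arrays left out. Glb1, with another probe where all 9 arrays had to be above background, turned to -0.0583 against both controls, -0.23 against heterozygous cells and -0.35 between the controls, and between the controls ranged from -0.21 (without heterozygous replicate 3) to 1.63 with single arrays left out. Atp6v1c1 against heterozygous cells turned to 0.0216 with the mean of its probes. The cause of these changes was not tested beyond the change of probe.

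Replicate numbers are shared by the groups, and the titles give deficient and homozygous wild type arrays the same Hom numbers. Deviations from the group means correlated at -0.06 to 0.22 between same-numbered arrays of different groups, and at -0.26 to 0.16 between differently numbered ones. For numbers 1 and 3 the same-numbered correlations were all above 0, from 0.11 to 0.22. Whether the numbers mark pairs is not stated. The main model did not take them as pairs, and the replicate block did. With the replicate block, 58, 19, 106 and 2 genes and 0 members were called in the 4 comparisons, with the members' medians as without it. Signal near background limits what can be said of Ctse, Gla, Atp6v0d2, Ctsl, Tfeb, Slc11a1, Idua and Ggh.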
